A study of Homo sapiens with 16 samples.

Results

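The early response of MCF10A cells to a HER2 kinase inhibitor was read from the arrays of 6 and 9 h of treatment set against those of 0 and 3 h. These 4 arrays were chosen by treatment time alone, out of the 16 of a series sampled every 3 h up to 45 h. MCF10A is a nontransformed line of human mammary epithelial cells. The inhibitor, CP724714, is a small molecule directed at the kinase of HER2 (gene ERBB2), and it was present at 1 µM from 0 h onwards. The 0 h array came from untreated cells and the arrays of 3, 6 and 9 h from treated cells, each from a plate of its own grown in parallel. All plates, the untreated plate included, held a Ham's medium with EGF, insulin, hydrocortisone, transferrin, thyroid hormone and albumin, so EGF and insulin were supplied throughout. The medium was renewed when the inhibitor was added and no untreated series was analysed here, so the inhibitor, the fresh medium and time in culture cannot be told apart.

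HER2 and EGFR are receptor kinases of the ERBB family that pair with each other once a ligand has bound, and they pass the signal to the RAS and ERK kinases and to PI3K and AKT. ERK drives immediate-early genes and its own feedback inhibitors, while AKT holds FOXO transcription factors out of the nucleus and, with mTORC1, favours ribosome production and the SREBP factors that switch on sterol and fatty acid synthesis. Breast epithelial cells in culture also answer fresh medium, growth factors and steroid hormones within hours, with waves of immediate-early, clock and glucocorticoid-responsive transcripts.

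RNA was measured on Illumina bead arrays with 20589 rows, and each row gave an intensity and a detection p-value that sets it against the negative control beads. The median intensity was 252, 247, 252 and 254 at 0, 3, 6 and 9 h, and 10577, 10411, 10777 and 10498 rows were detected (detection p under 0.05). Probes detected on at least 2 of the 4 arrays were tested, which left 10894 probes (52.9% of the rows) for 10356 genes. Of these probes, 9253 were detected on all 4 arrays, and 380 were tested through a single window alone, since both arrays of the other window were at background. All levels below are log2 intensities after background correction and quantile normalization, and sets of values are given in the order 0, 3, 6 and 9 h. An offset of 16 added before the log compresses dim probes, so changes near the background are understated. No time point had a second array. The spread that a probe itself brings to its p-value is therefore the difference between 0 and 3 h and between 6 and 9 h, which holds any real change within a window. That spread (2 degrees of freedom) is weighed by limma with one drawn from all probes by intensity (5.32 degrees of freedom). An exact permutation test of 2 arrays against 2 cannot go under 0.33, so the p-values rest on the model that limma fits across all probes.

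The arrays of one window were more alike than those of different windows. The SD of the log2 difference across probes was 0.39 between 0 and 3 h and 0.31 between 6 and 9 h. It was 0.43 between 3 and 6 h and 0.63 between 0 and 9 h. No values were identical between arrays.

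Markers fixed for the check of the cell type matched a basal mammary epithelial line in part. Of 12 basal markers on the array, 8 were detected on all 4 arrays, among them the keratin KRT5. KRT14, TP63, ITGA6 and LAMB3 had no tested probe, and the row of LAMB3 stood at 11.40, 12.10, 11.91 and 11.58 although its detection p was never under 0.05. The luminal keratins KRT8 and KRT18 were bright as well (13.81 and 13.64 at 0 h), whereas the receptors ESR1, PGR and KIT were undetected. FAP was the single fibroblast marker of 8 detected on all 4 arrays, and none of 9 endothelial and blood cell markers was.

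Between the windows, 899 of the 10894 probes (8.25%) were called at an adjusted p under 0.05 by limma. The level was higher at 6 and 9 h for 503 probes (4.62%) and lower for 396 (3.64%). By fold alone, with windows that did not overlap, 580 probes (5.32%) lay at least 1.7-fold up and 504 (4.63%) at least 1.7-fold down. Windows that did not overlap were common in themselves, at 57.8% of probes (3059 higher and 3239 lower). The median difference over all tested probes was -0.01. The count of calls hung on single arrays and on the model of the spread. Leaving out the 0, 3, 6 or 9 h array gave 577, 1551, 716 and 51 calls, and without the 9 h array 39.2% of the calls were higher in place of 56.0%. A prior variance without an intensity trend gave 97 calls, and a fit of all 16 arrays as 8 windows gave 2985, among them 898 of the 899.

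**Figure D1:**
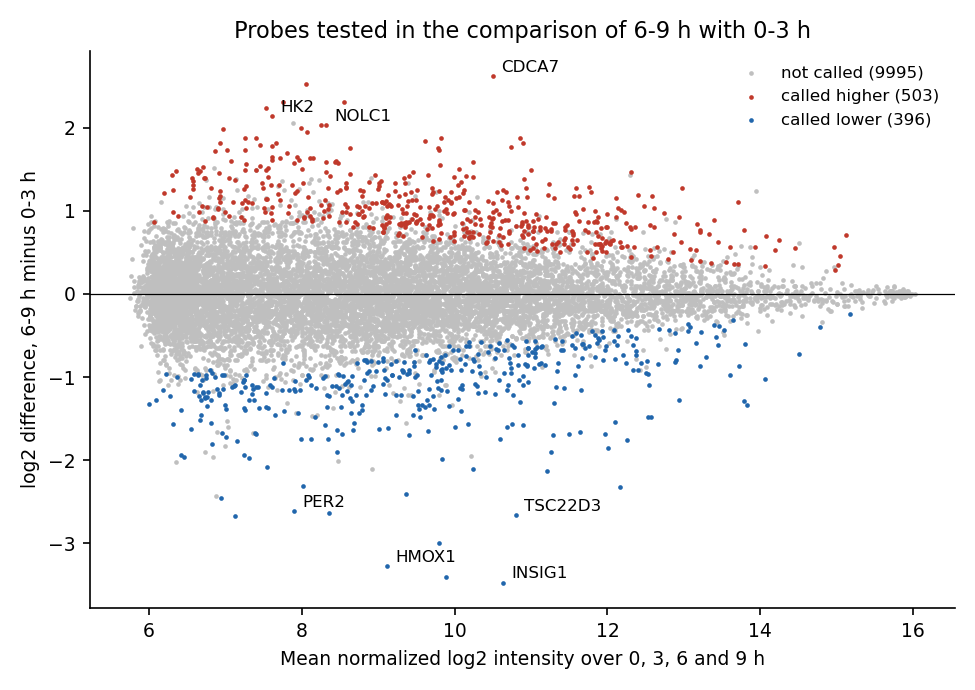
Each point is 1 of the 10894 tested probes, with its mean log2 intensity over 0, 3, 6 and 9 h on the x axis and the log2 difference of 6 and 9 h minus 0 and 3 h on the y axis, in red where called higher (503), blue where called lower (396) and grey otherwise. INSIG1 lies lowest at -3.47 and CDCA7 highest at 2.62, and calls of small differences lie among the bright probes.

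The largest decrease was that of INSIG1, an endoplasmic reticulum protein that holds back the processing of SREBP and whose gene is itself an SREBP target. Its log2 intensity was 12.30, 12.45, 8.82 and 8.97, an 11.1-fold fall (log2 difference -3.47, standard error 0.14, adjusted p = 0.00027, limma). Both early arrays lay far above both later ones, and the arrays within each window differed by 0.15. A dimmer second probe of INSIG1 did not show this, at 9.00, 9.71, 9.06 and 8.51 (adjusted p = 0.26). HMOX1, the heme-degrading enzyme heme oxygenase 1, stood at 10.69, 10.83, 8.18 and 6.79, and fell 9.66-fold (adjusted p = 0.013). It was still falling between 6 and 9 h, and its windows did not overlap.

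GDF15, a secreted stress cytokine, went from 11.97 and 10.63 to 8.40 and 8.20 (adjusted p = 0.013). TSC22D3, the glucocorticoid-induced leucine zipper protein, had 12.87, 11.39, 9.57 and 9.36 (log2 difference -2.66, adjusted p = 0.018). FBXO32, a muscle atrophy ubiquitin ligase gene and FOXO target, had 12.51, 10.66, 8.46 and 7.91 on the row with the larger change (adjusted p = 0.018). All 3 had begun to decline by 3 h, and in each the 3 h array still lay above both later arrays. A brighter FBXO32 probe fell by only 0.50, from 12.66 and 12.46 to 12.12 and 11.98 (adjusted p = 0.041), and the row with the larger change combines several probes. HBP1, a transcriptional repressor that restrains the cell cycle, behaved differently in time, since its 0 and 3 h levels of 9.76 and 9.59 were alike and both later levels, 7.14 and 6.93, were lower (log2 difference -2.64, adjusted p = 0.0037).

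The other decreases among the largest 10 were those of the serine protease PRSS22, the clock gene PER2, the kynurenine enzyme KMO and the stress-induced p53 target TP53INP1. PRSS22 (8.32, 8.61, 5.91 and 5.69) and KMO (8.84, 7.51, 5.65 and 5.80) were undetected on both later arrays, so their change is a bound. PRSS22 was at least 5.06-fold lower and KMO at least 4.13-fold lower. Both were tested through the early window alone, so a difference was built in by the filter and their p-values are not given. For such bounds, the level of an undetected probe is set to the lowest value among detected single-probe rows of that array, or to its own value where higher. PER2 and TP53INP1 are described with their groups. The other 8 decreases were called without the 0, the 3 or the 6 h array. With the 9 h array left out their adjusted p ran from 0.00026 for INSIG1 to 0.070 for FBXO32, with FBXO32, TSC22D3 (0.069) and PER2 (0.052) past the threshold. A fit without an intensity trend ended the calls of FBXO32 (0.072), HMOX1 (0.056), GDF15 (0.058), TSC22D3 (0.072) and PER2 (0.053).

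The largest increase was that of CDCA7, a MYC-responsive and cell-cycle-regulated nuclear protein. Its level was 9.30, 9.08, 11.39 and 12.24, a 6.17-fold rise (log2 difference 2.62, standard error 0.26, adjusted p = 0.0077, limma). HS3ST3A1, a heparan sulfate sulfotransferase, had 6.78, 6.80, 9.04 and 9.59 (adjusted p = 0.0071). HK2, hexokinase 2, the enzyme that starts glycolysis by phosphorylating glucose, had 6.58, 6.51, 8.46 and 8.91, and rose 4.41-fold (adjusted p = 0.011). In all 3 genes the 0 and 3 h arrays were level with each other, and both later arrays were higher, with the 9 h array the highest.

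LRP8, a lipoprotein and reelin receptor, stood at 6.94, 7.86, 9.61 and 9.81 (adjusted p = 0.015), so part of its rise lay between 0 and 3 h. TRNT1, which adds the CCA end to transfer RNAs, had 7.29, 7.19, 9.04 and 9.49 (adjusted p = 0.011). NOLC1, a nucleolar phosphoprotein, had 7.01, 7.59, 9.04 and 9.62 (adjusted p = 0.015). Windows did not overlap for any of them. The zinc finger gene ZNF485 (6.14, 6.69, 8.67 and 8.65), the bromodomain gene BRWD1 (5.98, 7.21, 8.60 and 9.21) and the SOCS box gene ASB13 (7.68, 6.31, 8.91 and 9.08) were also called, at adjusted p-values of 0.011, 0.026 and 0.034. BRWD1 was detected on 1 of the 2 early arrays, and its early levels differed by 1.24. PCED1B, listed in the file under its older symbol FAM113B, was undetected at 0 and 3 h (5.95 and 6.02) and at least 3.50-fold higher at 6 and 9 h (7.85 and 8.08), a difference built in by the filter, since it was tested through the later window alone. Without the 9 h array, the adjusted p of the other 9 increases ran from 0.0078 for CDCA7 to 0.14 for ASB13, and CDCA7, HS3ST3A1 (0.029) and ZNF485 (0.050) were called. ASB13 was also no longer called without the 6 h array (0.054). A fit without an intensity trend ended the calls of LRP8 (0.056), NOLC1 (0.057), BRWD1 (0.077) and ASB13 (0.091).

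For a view by function, 31 lists with 506 genes were used. Of these genes, 496 were on the array and 397 were tested, and 29 belong to more than 1 list. Some members were tested through a single window, so a tested difference was built in for them, among them BTC, EGR2, DUSP2, SPRY1, PDK4, MYBBP1A, CXCL2, TAGLN and IFIT3. The sterol list and the DNA replication list each held 1 such member as well. Members whose symbol matched no row included ALDH1L2, NUPR1, GINS1, GINS3, CDK1, NOP2, WDR43, PNO1 and TGIF1, and the other untested members had no row with a detection p under 0.05 on 2 of the 4 arrays, among them STARD4, BCL2L11, MDM2, NR1D1, PER1 and JUNB. For ATF3 this was a matter of the row, since a row that combines several of its probes stood at 9.63, 8.64, 6.84 and 6.40 with a detection p that never passed; 57 combined rows, and no single-probe row, were as bright as 500 in intensity and yet undetected on all 4 arrays. A row under P8, a synonym that NUPR1 shares with other genes, was in no list, and it stood at 13.19, 12.69, 11.73 and 10.44 (adjusted p = 0.033, and 0.051 without the 9 h array). Each list is described by its counts and median beside those of all tested probes (4.62% higher, 3.64% lower, median -0.01), and nothing is called particular to a list from them. Without an intensity trend, calls in the lists were few, with 1 FOXO target, 1 p53 target, 2 ATF4 targets, 1 clock gene and none of the G1, fatty acid, mitosis and heat shock genes. In these bulk samples, less RNA per cell and fewer cells that express a gene cannot be told apart.

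Most tested sterol synthesis and uptake genes were lower at 6 and 9 h. Of 27 genes, all on the array, 26 were tested, and 16 fell (61.5%) while none rose. The 26 include 1 gene tested through a single window, so its difference was built in. Among the 25 genes detected on all 4 arrays, 15 were called lower and none higher. The median difference was -0.80, and it lay between -0.83 and -0.76 with other scalings or no background correction. The mean level of the 26 genes was 11.37, 11.43, 10.64 and 10.31, so the decline began after 3 h. Leaving out the 0, 3, 6 or 9 h array gave 12, 15, 17 and 5 calls, all lower, and the fit without an intensity trend gave 3.

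**Figure D2:**
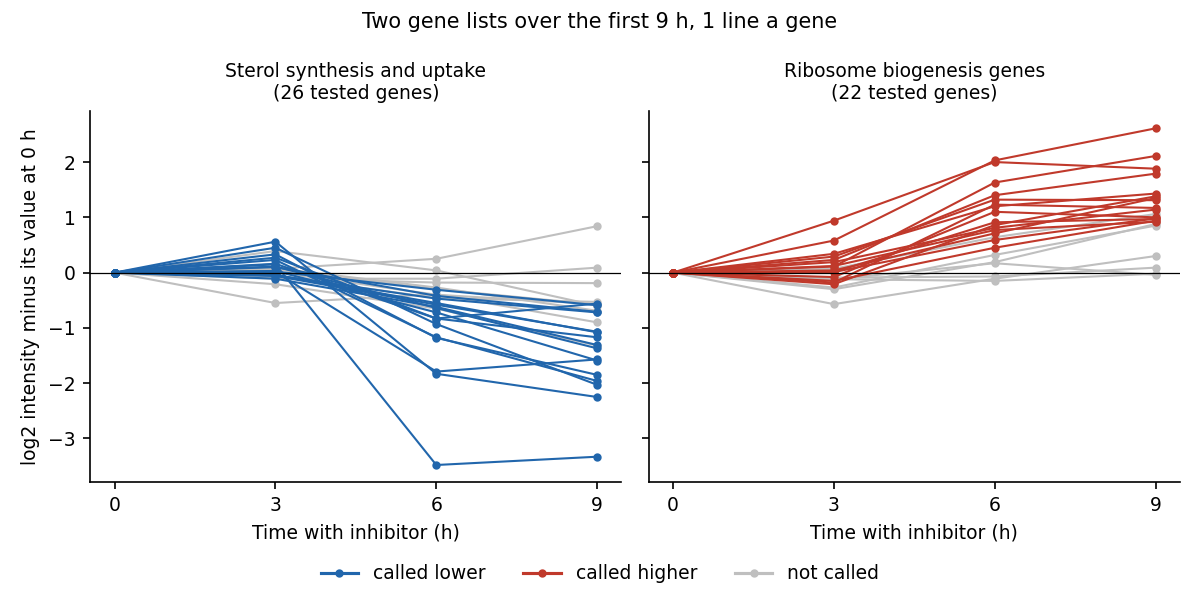
Lines show the log2 intensity of single genes minus their own value at 0 h (y axis) against hours with inhibitor (x axis), for 26 tested sterol genes on the left and 22 tested ribosome biogenesis genes on the right, coloured by the call of 6 and 9 h against 0 and 3 h. The 16 called sterol genes lie between -0.12 (LSS) and 0.55 (HMGCS1) at 3 h and below 0 at 6 and 9 h, and the 15 called ribosome biogenesis genes lie above 0 at both later times.

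Among the enzymes of the mevalonate pathway, HMGCS1 and IDI1 showed large differences. HMGCS1, the synthase that makes HMG-CoA, was at 13.04, 13.60, 11.21 and 10.79, and fell 4.99-fold (adjusted p = 0.0055). IDI1, the isopentenyl diphosphate isomerase, was at 10.03, 10.48, 9.10 and 8 (adjusted p = 0.034). Both genes were lower again at 9 h than at 6 h, and their windows did not overlap. The kinase MVK (9.25, 9.48, 8.08 and 7.29, adjusted p = 0.022) and the decarboxylase MVD (11.43, 11.54, 10.79 and 10.06, adjusted p = 0.037) fell too, and the kinase PMVK, which acts between them, was at 10.78, 10.68, 10.60 and 10.59 (adjusted p = 0.57). The adjusted p without the 9 h array was 0.0078 for HMGCS1, 0.085 for IDI1, 0.074 for MVK and 0.092 for MVD.

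Later enzymes, which turn squalene into cholesterol, fell in part as well. MSMO1, a sterol methyl oxidase, had 12.64, 12.97, 11.46 and 10.79 (log2 difference -1.68, adjusted p = 0.014, and 0.016 without the 9 h array). DHCR7, the last reductase of cholesterol synthesis, had 12.23, 12.26, 11.51 and 10.64 (adjusted p = 0.037, and 0.065 without the 9 h array). For both the 9 h array was the lowest of the 4. The early arrays of DHCR7 were level with each other, and MSMO1 was higher at 3 h than at 0 h. LSS, the cyclase that makes lanosterol, had 12.91, 12.80, 12.29 and 11.60 (adjusted p = 0.042), with losses of the call without the 0 h array (0.058) and the 9 h array (0.085). A dimmer LSS row had 9.38, 9.45, 9.06 and 8.42 (adjusted p = 0.13). SQLE, the squalene epoxidase that acts just before LSS, had 9.18, 9.57, 9.22 and 8.58, with overlapping windows (adjusted p = 0.29).

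Among regulatory genes, SREBF2, which encodes the main sterol-regulating SREBP, was at 10.66, 10.72, 10.36 and 10.08 (adjusted p = 0.10), and its escort SCAP at 11.17, 11.06, 11.06 and 11.26 (adjusted p = 0.88). The sterol list therefore holds members with little difference between the windows beside INSIG1 with the largest of all tested probes.

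Because 16 of the 26 tested sterol genes were called lower, the promoters of the list were searched for short motifs. RefSeq promoters of GRCh38.p14 (250 bases before to 50 after the start, first listed start of each gene) were found for 20 of the 27 sterol genes. The motif CCAAT, the core bound by the factor NF-Y, was held on either strand by 15 of these 20 (75.0%), by 10 of the 11 that were called, and by 35.7% of the 27305 genes with a promoter. TCACNCCAC, a form of the sterol response element, was held by 1.15% of all promoters and by 1 of the 20 sterol promoters, that of SREBF2. Further motifs and lists were also looked at, and those given here were kept after their counts had been seen. A match describes the letters only. The 250 bases before the start are shown for the called genes INSIG1, HMGCS1 and MVD, whose promoters hold CCAAT, and for SREBF2. They lie at chr7:155297628-155297877 (plus strand) for INSIG1, chr5:43313413-43313662 (minus strand) for HMGCS1, chr16:88663092-88663341 (minus strand) for MVD and chr22:41832855-41833104 (plus strand) for SREBF2. Capitals mark CCAAT or its reverse complement ATTGG in the first 3 sequences and TCACNCCAC in SREBF2, and the sequences are written in the direction of the gene. The SREBF2 sequence holds ATTGG as well, left in lower case.
INSIG1: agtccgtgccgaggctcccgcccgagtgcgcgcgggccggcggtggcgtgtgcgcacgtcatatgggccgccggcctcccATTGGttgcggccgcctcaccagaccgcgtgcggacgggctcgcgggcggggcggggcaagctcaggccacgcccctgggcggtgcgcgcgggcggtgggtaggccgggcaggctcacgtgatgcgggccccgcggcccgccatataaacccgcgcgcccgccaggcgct
HMGCS1: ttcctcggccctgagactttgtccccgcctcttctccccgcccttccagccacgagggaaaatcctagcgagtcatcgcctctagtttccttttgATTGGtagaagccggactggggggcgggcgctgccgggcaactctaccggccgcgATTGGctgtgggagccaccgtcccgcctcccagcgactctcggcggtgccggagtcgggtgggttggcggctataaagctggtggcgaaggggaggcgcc
MVD: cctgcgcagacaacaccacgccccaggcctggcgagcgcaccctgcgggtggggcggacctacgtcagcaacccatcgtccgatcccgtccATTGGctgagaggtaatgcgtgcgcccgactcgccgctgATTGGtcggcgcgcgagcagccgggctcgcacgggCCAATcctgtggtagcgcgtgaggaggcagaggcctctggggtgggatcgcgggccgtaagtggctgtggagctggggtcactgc
SREBF2: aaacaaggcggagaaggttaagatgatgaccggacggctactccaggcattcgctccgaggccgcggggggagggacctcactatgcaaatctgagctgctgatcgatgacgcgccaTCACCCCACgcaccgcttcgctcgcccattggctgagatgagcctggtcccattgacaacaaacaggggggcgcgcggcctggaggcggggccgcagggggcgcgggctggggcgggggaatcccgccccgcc

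Fatty acid synthesis genes had fewer calls. Of 13 genes on the array 12 were tested, 3 fell and none rose, and the median difference was -0.40 (-0.25 without the 0 h array). SREBF1, which encodes the SREBP form that drives fatty acid synthesis, had 11.54, 11.03, 9.46 and 8.92, a 4.28-fold fall (adjusted p = 0.012, and 0.023 without the 9 h array). The desaturases FADS1 (10.54, 10.12, 9.43 and 9.45, adjusted p = 0.034) and SCD (15.08, 14.89, 14.66 and 14.50, adjusted p = 0.039) also fell, and their calls ended without the 0 h array (0.085 and 0.096) and without the 9 h array (0.13 and 0.17). FADS1 was not called without the 6 h array either (0.066). FASN, the synthase itself, was at 13.92, 13.84, 13.74 and 13.55 (adjusted p = 0.14), and ACLY, which supplies cytosolic acetyl-CoA, at 11.99, 11.93, 11.59 and 11.21 (adjusted p = 0.057). ACLY was called without the 6 h array (0.024) and after cyclic loess (0.048).

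Ribosome biogenesis genes moved upwards. Of 28 genes, 25 were on the array and 22 were tested, and 15 rose (68.2%) while none fell. The median difference was 0.91, and 0.81 to 0.99 with other scalings or no background correction. The mean level of the 22 genes was 10.30, 10.33, 11.11 and 11.39, so the rise began after 3 h here as well. It was 15 calls without the 0, the 3 or the 6 h array, 3 without the 9 h array and 2 without an intensity trend.

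NOLC1 rose most in this list (log2 difference 2.03). MYBBP1A, a nucleolar regulator of ribosomal RNA synthesis, was undetected at 0 and 3 h (5.97 and 6.08) and at least 3.20-fold higher at 6 and 9 h (7.60 and 8.08); it was the single member tested through 1 window, so its difference was built in. NOP16 had 11.45, 11.68, 12.85 and 13.24 (adjusted p = 0.0081), and RRS1 had 11.21, 11.03, 12.44 and 12.38 (adjusted p = 0.0055). Both take part in assembly of the large subunit, and for both the later arrays lay more than 1 log2 unit above the early ones. PPAN, another large subunit factor, had 8.25, 9.19, 10.25 and 10.13 (adjusted p = 0.033), with the first part of its difference between 0 and 3 h. POLR1C, a subunit shared by RNA polymerases I and III, had 11.40, 11.41, 12.31 and 12.37 (adjusted p = 0.011), and a dimmer probe of the gene rose as well (10.17, 10.26, 11.09 and 11.11). The abundant nucleolar proteins FBL (13.39, 13.30, 13.32 and 13.48) and NPM1 (15.78, 15.66, 15.63 and 15.76) had overlapping windows. Once the 9 h array was left out, NOLC1 (0.072) and PPAN (0.11) lost their calls and NOP16 (0.016), RRS1 (0.016) and POLR1C (0.050) kept theirs. PPAN also lost its call without the 6 h array (0.065).

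The E-box CACGTG, the letters bound by MYC among other factors, was held by 9 of 23 promoters of ribosome biogenesis genes (39.1%), by 4 of 11 whose genes were called and by 7.43% of all promoters, on either strand. It was held by 4 of the 20 sterol promoters (20%). MYC itself stood at 11.14, 12.19, 12.67 and 12.46, higher by 1.05 at 3 h than at 0 h, and did not pass the test between the windows (log2 difference 0.90, adjusted p = 0.11). Its difference hung on single arrays, at 0.38 without the 0 h array and 1.43 without the 3 h array.

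Part of the FOXO target genes fell. Of 20 genes on the array 16 were tested, 6 fell (37.5%) and none rose, and the median difference was -0.75 (-0.75 to -0.57 with other scalings or no background correction, -0.36 without the 0 h and -1.33 without the 3 h array). TXNIP, which binds thioredoxin and limits glucose uptake, had 13.29, 13.25, 11.81 and 11.77, a 2.80-fold fall (adjusted p = 0.0027, and 0.0034 without the 9 h array). The transcription factor KLF6 had 14.09, 13.05, 12.36 and 12.22 (adjusted p = 0.041), and a second KLF6 row fell the same way. CCNG2, an unusual cyclin of quiescent cells, had 7.61, 7.29, 6.00 and 6.37 (adjusted p = 0.030) and was detected on 1 of the 2 later arrays. TXNIP stayed level until 3 h, whereas KLF6 was already lower at 3 h. In all, 6 tested members were at least 1.7-fold lower at 3 h than at 0 h, KLF6 among them. The number of lower calls without the 0, 3, 6 or 9 h array was 3, 13, 3 and 1, with 1 higher call beside the 13, and the single call without the 9 h array was TXNIP. KLF6 and CCNG2 had adjusted p-values of 0.055 and 0.090 without the 6 h array and 0.15 and 0.092 without the 9 h array, and CCNG2 had 0.060 without the 0 h array. The FOXO motif TTGTTTAC was held by 3 of 17 FOXO target promoters (17.6%), by 1 of the 4 whose genes were called (TXNIP) and by 0.941% of all promoters.

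Some p53 target genes fell as well. Of 18 p53 targets on the array 15 were tested, 6 fell (40%) and none rose, and the median difference was -0.82 (-0.84 to -0.59 with other scalings or no background correction, and -0.38 without the 0 h array). TP53INP1, which takes part in p53-driven stress and autophagy, had 10.79, 10.34, 8.43 and 7.89 (log2 difference -2.40, adjusted p = 0.0077, and 0.016 without the 9 h array). The growth arrest gene GADD45A had 11.63, 11.26, 10.62 and 10.07 (adjusted p = 0.031). CDKN1A, the CDK inhibitor p21, had 13.87, 13.44, 12.99 and 12.57 (adjusted p = 0.033). In these genes the level went down at each time point, and the windows did not overlap. With the 9 h array left out the adjusted p was 0.10 for GADD45A and 0.12 for CDKN1A, and the list had 3, 11, 4 and 1 calls without the 0, 3, 6 or 9 h array. GADD45A is also a member of the FOXO list, and CDKN1A of the G1 list.

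Of 14 G1 cyclins and CDK inhibitors on the array 10 were tested, 1 rose and 4 fell, with a median difference of -0.48. CCND1, cyclin D1, which starts the passage through G1, was the gene that rose, with 12.20, 12.48, 13.55 and 13.69 (log2 difference 1.28, 2.43-fold, adjusted p = 0.0055, and 0.016 without the 9 h array). Both later arrays were at least 1 log2 unit above both early ones. CDKN2C, the CDK4 and CDK6 inhibitor p18, had 8.80, 8.38, 7.64 and 7.54 (adjusted p = 0.041), and CDKN1B, the inhibitor p27, had 10.38, 9.04, 8.83 and 9.08 with overlapping windows (adjusted p = 0.28). The call of CDKN2C ended without the 0 h (0.11), the 6 h (0.087) or the 9 h array (0.20), and the list had 1, 5, 2 and 0 lower calls without the 0, 3, 6 or 9 h array.

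ATF4, a factor of the amino acid and integrated stress response, and some of its targets fell. Of 25 genes 23 were on the array and 20 were tested, 7 fell (35.0%) and none rose, and the median difference was -0.55 (-0.57 to -0.52 with other scalings or no background correction, and -0.36 without the 0 h array). ATF4 had 13.76, 13.58, 13.09 and 12.73 (adjusted p = 0.024, and 0.071 without the 9 h array). TRIB3, a pseudokinase and ATF4 target, had 12.83, 12.91, 11.42 and 11.26, a 2.90-fold fall (adjusted p = 0.0037, and 0.0039 without the 9 h array). The 2 later arrays of TRIB3 lay well under the early ones, and those of ATF4 under them by less.

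The serine synthesis pathway, in which PHGDH, PSAT1 and PSPH act in turn, was part of this list and of the genes named by the study. PHGDH had 13.24, 13.07, 13.07 and 12.81 (adjusted p = 0.28). PSAT1 had 12.75, 12.73, 12.17 and 11.83 (adjusted p = 0.024). PSPH had 10.17, 9.98, 8.89 and 8.80, a 2.35-fold fall (adjusted p = 0.015). The later enzymes of the pathway were thus lower at 6 and 9 h on both arrays, and the PHGDH levels of 3 and 6 h were the same. MTHFD2, a mitochondrial folate enzyme that uses serine carbon, had 11.87, 11.74, 11.00 and 10.76 (adjusted p = 0.016), while the amino acid transporters SLC7A5 (13.61, 13.70, 13.55 and 13.62) and SLC3A2 (12.36, 12.19, 12.38 and 12.11) had overlapping windows. PSAT1 (0.076), PSPH (0.069) and MTHFD2 (0.068) were not called without the 9 h array, and the list had 6, 11, 7 and 2 calls without the 0, 3, 6 or 9 h array.

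Of 19 genes of endoplasmic reticulum chaperones and the unfolded protein response 17 were tested, 1 rose and 2 fell, with a median difference of -0.12 (-0.03 without the 9 h array). HERPUD1, which serves degradation of misfolded proteins, had 11.48, 10.43, 9.24 and 9.53 (adjusted p = 0.033). XBP1, a transcription factor of the response, had 10.85, 10.76, 9.86 and 9.85 (adjusted p = 0.016), and the chaperone partner SDF2L1 had 11.50, 11.69, 12.27 and 12.53 (adjusted p = 0.021). HERPUD1 was lower by 3 h already and the other 2 were not. The central chaperone HSPA5 had 9.89, 9.49, 9.34 and 9.42 (adjusted p = 0.35). Without the 9 h array none of the list was called (0.086 for HERPUD1, 0.070 for XBP1 and 0.089 for SDF2L1), and without the 6 h array the adjusted p of HERPUD1 was 0.061.

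Among the clock genes some fell. Of 16 genes on the array 11 were tested, 4 fell (36.4%) and none rose, and the median difference was -0.72 (-0.70 to -0.39 with other scalings or no background correction, and -1.11 without the 3 h or the 6 h array). PER2, a repressor of the clock, had 9.61, 8.80, 6.92 and 6.27, a 6.10-fold fall (adjusted p = 0.014). BHLHE40, which also represses clock genes, had 12.81, 11.47, 10.45 and 10.44 (adjusted p = 0.038), and DBP, an output factor, had 8.51, 7.99, 6.92 and 6.21 (adjusted p = 0.027). All 3 were lower at each step up to 9 h. The activators BMAL1 (8.77, 9.44, 8.88 and 8.91) and CLOCK (6.79, 6.16, 6.94 and 6.68) had overlapping windows. The list had 4, 6, 2 and 0 calls without the 0, 3, 6 or 9 h array. Without the 9 h array the adjusted p was 0.052 for PER2, 0.13 for BHLHE40 and 0.13 for DBP, and for BHLHE40 it was 0.059 without the 6 h array.

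Glucocorticoid-induced genes, of which 15 of 16 were tested, had 1 higher and 1 lower call and a median difference of -0.48 (-0.24 without the 0 h array). TSC22D3 was the call that fell. TFCP2L1, a transcription factor of epithelial cells, rose from 10.35 and 10.69 to 11.28 and 11.29 (adjusted p = 0.032). Its adjusted p was 0.067, 0.061 and 0.13 without the 0, 6 or 9 h array. FKBP5, a cochaperone of the glucocorticoid receptor and a standard reporter of its activity, was at 12.26, 12.37, 12.12 and 12.13 (adjusted p = 0.27). SGK1, listed as SGK, had 13.74, 12.16, 11.98 and 12.16 (adjusted p = 0.24), with its whole difference between 0 and 3 h. Without the 3 h array 7 members of the list were called lower, and without the 9 h array none was called.

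**Figure D3:**
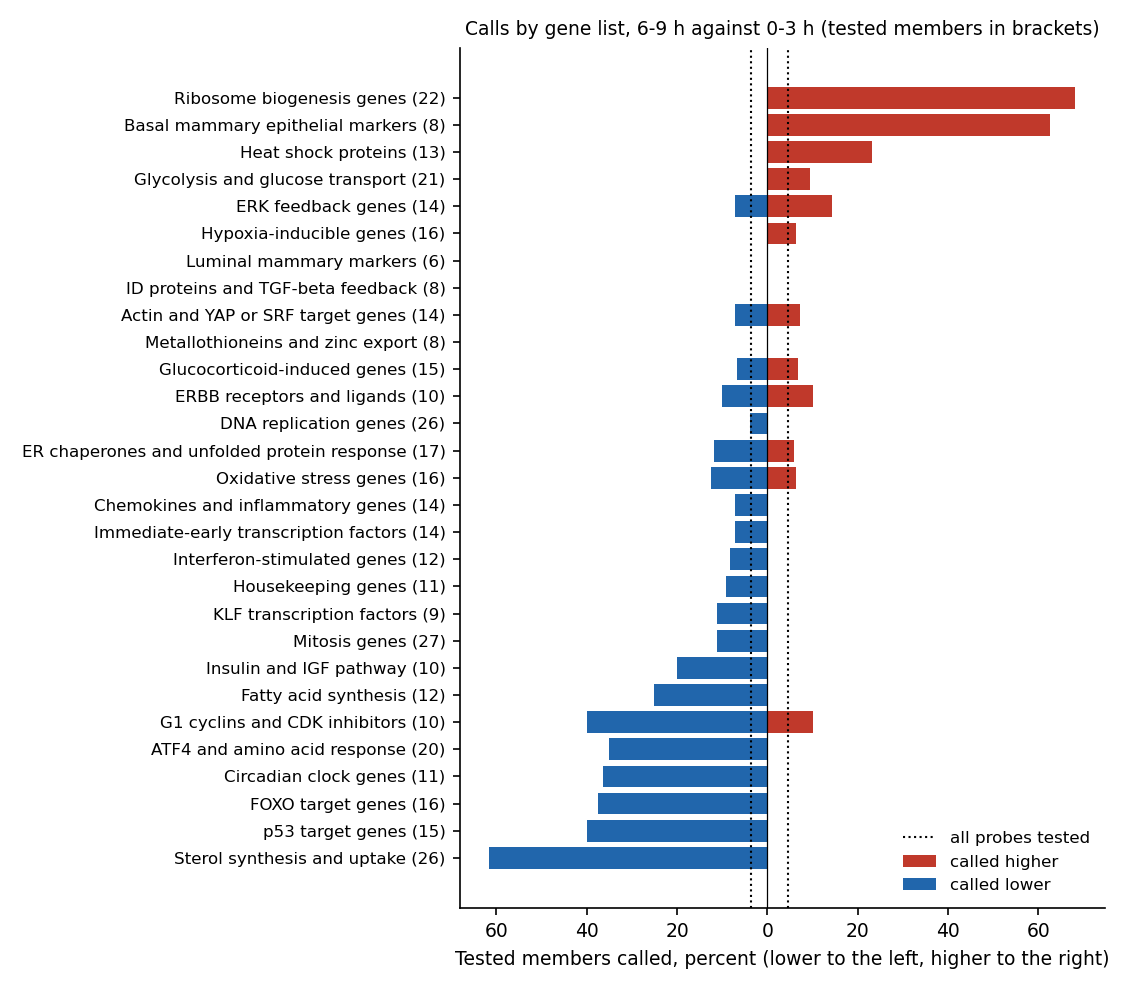
Bars show the percent of tested members (x axis) called higher (red, to the right) and lower (blue, to the left) at 6 and 9 h against 0 and 3 h for each gene list (y axis, number tested in brackets), with dotted lines at the 4.62% and 3.64% of all tested probes. Ribosome biogenesis genes reach 68.2% higher and sterol genes 61.5% lower, and the 2 lists with a single tested gene are left out.

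Genes close to the inhibited receptor had calls in both directions. Of 14 ERBB receptors, ligands and inhibitors on the array 10 were tested, 1 rose and 1 fell, and the median difference was 0.03 (-0.13 without the 0 h and 0.18 without the 3 h array, and -0.41 among probes detected on all 4 arrays). ERBB2 lay at background, at 6.20, 6.49, 6.26 and 6.33, detected on 1 array of each window (adjusted p = 0.91). EGFR had 9.58, 9.41, 9.85 and 9.83 (adjusted p = 0.22) and ERBB3 had 10.92, 10.40, 10.07 and 9.75 (adjusted p = 0.072). None of the receptors passed the test. Among the ligands, EPGN rose from 6.00 and 6.65 to 7.95 and 8.44 (adjusted p = 0.019), and HBEGF fell from 7.55 and 8.07 to 6.69 and 6.70 (adjusted p = 0.039). Neither was called without the 9 h array (0.094 and 0.18), and HBEGF was not called without the 3 h (0.064) or the 6 h array (0.099). AREG, EREG, EGF and ERBB4 had no tested probe.

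ERK feedback genes, of which 14 of 18 were tested, had 2 higher calls, 1 lower call and a median difference of 0.00, which lay between -0.01 and 0.08 with other scalings or no background correction and was 0.16 without the 3 h array. The calls were CCND1, the feedback inhibitor SPRY1 and PHLDA1. SPRY1 was undetected at 0 and 3 h (5.65 and 5.73) and at least 1.72-fold higher at 6 and 9 h (7.06 and 6.81), with a difference built in by its test through 1 window. PHLDA1 had 13.10, 13.07, 12.44 and 12.05 (adjusted p = 0.019). PHLDA1 was not called without the 9 h array (0.056). DUSP6, a phosphatase that switches off ERK, was at 5.73, 7.81, 6.40 and 6.90, and so was highest at 3 h, and DUSP5 was highest at 3 h too (10.42, 11.21, 10.19 and 10.46). DUSP4 had 12.24, 11.97, 12.51 and 12.29 (adjusted p = 0.21).

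Immediate-early transcription factors, of which 14 of 21 were tested, had 1 lower call and a median difference of -0.31 (-0.54 without the 3 h array). The call was JUND, an AP-1 subunit, with 14.49, 14.50, 13.30 and 13.02, a 2.53-fold fall (adjusted p = 0.0037, and 0.0034 without the 9 h array). FOS had 12.25, 10.14, 9.10 and 9.38 (adjusted p = 0.080) and EGR1 had 12.51, 12.22, 11.99 and 11.97 (adjusted p = 0.095). For both the windows did not overlap, and the early levels of FOS differed by 2.11. Without the 3 h array 2 members were called higher and 5 lower.

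Of 24 genes of glycolysis and glucose transport on the array 21 were tested, 2 rose and none fell, and the median difference was 0.03 (0.13 without the 3 h array). Beside HK2, the call was PFKP, the platelet form of phosphofructokinase, with 11.71, 12.14, 12.58 and 12.82 (adjusted p = 0.034). The muscle form PFKM stood at 8.29, 8.56, 8.93 and 9.60 (log2 difference 0.84, adjusted p = 0.086), and it was called without the 3 h (0.047) or the 6 h array (0.043). LDHA, lactate dehydrogenase A, was at 14.70, 14.74, 14.92 and 15.07 (adjusted p = 0.054), and it was called without the 6 h array (0.035), without background correction (0.047) and after quantile normalization of the 4 arrays (0.042). SLC2A1, the glucose transporter GLUT1, was at 10.00, 9.92, 9.72 and 9.46 (adjusted p = 0.20), and VAMP8, a SNARE protein of vesicle fusion, at 14.08, 14.14, 14.11 and 14.06 (adjusted p = 0.86). Without the 9 h array neither HK2 (0.052) nor PFKP (0.15) was called, and PFKP was not called without the 0 h array (0.051).

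Of the 20 genes that the study names for any assay, 18 were tested, none rose and 4 fell, namely INSIG1, PSPH, PSAT1 and IRS2. IRS2, an adaptor of the insulin receptor and a FOXO target, had 11.69, 11.49, 11.11 and 10.98 (adjusted p = 0.046), with adjusted p-values of 0.16, 0.065 and 0.20 without the 0, 6 or 9 h array and 0.063 after median scaling. The other adaptor, IRS1, was at 7.83, 8.67, 8.62 and 9.43 (adjusted p = 0.22). The insulin receptor INSR was at 6.90, 6.84, 6.61 and 7.32 (adjusted p = 0.87) and IGF1R at 6.47, 6.69, 6.31 and 6.36 (adjusted p = 0.52). The pyruvate dehydrogenase kinase PDK4 was at 7.38, 6.38, 5.89 and 5.90, undetected on both later arrays and at least 1.68-fold lower there. PDK2 (6.94, 6.22, 6.44 and 5.99), PDK3 (6.19, 5.81, 6.42 and 6.22) and SLC2A3 (6.25, 7.26, 6.16 and 6.61) lay near background with adjusted p-values of 0.49, 0.43 and 0.56, and PDK1 and SLC2A4 were not tested. Among 10 tested genes of the insulin and IGF pathway 2 fell, IRS2 and the binding protein IGFBP3 (10.72, 10.62, 9.57 and 9.48, adjusted p = 0.013, and 0.057 without the 9 h array).

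Oxidative stress genes held opposite calls. All 16 were tested, 1 rose and 2 fell, and the median difference was 0.01, which other scalings or no background correction placed between -0.07 and 0.01. HMOX1 and SQSTM1, an autophagy receptor with 12.30, 12.13, 10.91 and 9.73 (adjusted p = 0.025, and 0.015 without the 9 h array), fell. SRXN1, a sulfiredoxin that repairs peroxiredoxins, rose from 10.09 and 10.66 to 11.54 and 11.52 (adjusted p = 0.021, and 0.079 without the 9 h array). All 3 are known targets of NRF2. NQO1, another such target, was at 12.45, 12.53, 12.77 and 12.81 (adjusted p = 0.086), and the ferritin heavy chain FTH1 at 14.49, 14.54, 14.53 and 14.39 (adjusted p = 0.67).

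Among DNA replication genes, lower calls were about as frequent as over all tested probes. Of 32 replication genes 30 were on the array and 26 were tested. None rose and 1 fell (3.85%, against 3.64% of all tested probes), and the median difference was 0.11. The sign of that median turned with single arrays, at 0.23, -0.04, 0.42 and -0.22 without the 0, 3, 6 or 9 h array. The call was TYMS, thymidylate synthase, with 12.13, 12.02, 11.53 and 11.35 (adjusted p = 0.028), which ended without the 0 h (0.065) or the 9 h array (0.13). The list's course within the later window was uneven. Relative to 0 h, its median was -0.24 at 3 h, -0.35 at 6 h and 0.35 at 9 h. The replication initiation factor MCM10, for example, stood at 7.85, 7.07, 7.57 and 9.04 (adjusted p = 0.31), and the helicase subunit MCM3 at 8.67, 8.39, 8.49 and 9.72 (adjusted p = 0.37). In both the 9 h array was the highest and the 6 h array lay under the 0 h array. Without the 6 h array 4 members were called higher and 1 lower, and without the 3 h array 4 were called lower.

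Of 28 mitosis genes 27 were tested, none rose and 3 fell (11.1%). The median difference was -0.47 (-0.48 to -0.29 with other scalings or no background correction, and -0.29 without the 9 h array). Both later arrays were below both early ones for 20 of the 27, and for 3239 of all 10894 probes. The ubiquitin conjugase UBE2C had 14.11, 14.09, 13.71 and 13.28 (adjusted p = 0.040), the spindle protein NUSAP1 had 12.12, 11.94, 11.53 and 11.22 (adjusted p = 0.037) and the topoisomerase TOP2A had 11.84, 11.68, 11.30 and 10.87 (adjusted p = 0.048). In each the 9 h array was the lowest. All 3 calls ended without the 0 h array (0.053, 0.090 and 0.11) and without the 9 h array (0.099, 0.16 and 0.20), and that of TOP2A ended among probes detected on all 4 arrays (0.051). A dimmer UBE2C probe had 9.39, 9.78, 9.65 and 8.93 (adjusted p = 0.53). Without the 3 h array 7 mitosis genes were called lower, and without the 6 h array 6.

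Basal keratins were higher. Of the 8 tested basal markers 5 rose (62.5%) and none fell, with a median difference of 0.56 (0.52 to 0.56 with other scalings or no background correction, and 0.34 without the 0 h array). KRT17 had 12.89, 13.43, 14.16 and 14.35 (adjusted p = 0.017), KRT6A had 9.37, 9.85, 10.42 and 10.83 (adjusted p = 0.037) and the integrin ITGB4 had 10.98, 10.98, 11.57 and 11.59 (adjusted p = 0.029). The keratins were higher at each successive time, and ITGB4 only from 6 h. DSC3, a desmosomal cadherin, had the opposite course, with 9.70, 9.40, 9.12 and 8.44 (adjusted p = 0.11). Calls in the list numbered 2, 6, 5 and 0 without the 0, 3, 6 or 9 h array, and of the 5 without the 6 h array 4 were higher and 1 was lower. None of the list was called without an intensity trend. For KRT17 the adjusted p was 0.070 without the 9 h array, for KRT6A it was 0.067 without the 0 h and 0.18 without the 9 h array, and for ITGB4 it was 0.055, 0.059 and 0.13 without the 0, 6 or 9 h array. None of the 6 tested luminal markers was called, nor were the single tested fibroblast and endothelial markers FAP (9.96, 9.87, 9.58 and 9.43) and PECAM1 (6.01, 6.27, 6.51 and 6.5).

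Heat shock proteins, of which all 13 were tested, had 3 higher calls and a median difference of 0.33. HSPH1 had 11.33, 11.62, 12.11 and 12.35 (adjusted p = 0.029), the constitutive HSPA8 had 14.28, 14.08, 14.55 and 14.91 (adjusted p = 0.041) and its partner DNAJA1 had 12.78, 13.02, 13.29 and 13.57 (adjusted p = 0.046). Each of them was highest at 9 h. Their calls ended without the 9 h array (0.13, 0.14 and 0.20), and that of DNAJA1 without the 0 h array (0.11). The inducible HSPA1A had 11.66, 11.12, 11.80 and 12.11 (adjusted p = 0.12). A second probe of HSPA8 had 13.61, 13.31, 13.74 and 14.33 (adjusted p = 0.10).

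Actin-related and YAP or SRF target genes, with 14 of 18 tested, had 1 call in each direction and a median difference of 0.23. THBS1, a matrix glycoprotein, had 11.56, 12.34, 13.01 and 13.00 (adjusted p = 0.036), whereas CCN2, a classic YAP target, had 10.86, 10.40, 9.51 and 9.50 (adjusted p = 0.021). The actins ACTG1 (12.79, 13.85, 14.37 and 14.75) and ACTB (13.96, 14.45, 14.69 and 14.94) just missed the threshold (adjusted p = 0.051 and 0.057), and ACTG1 was called after median scaling (0.041). THBS1 was not called without the 6 h (0.059) or the 9 h array (0.13), CCN2 not without the 9 h array (0.080), and without the 3 h array 5 members were called higher. Higher calls in this list also depended on the settings, with 5 after median scaling, 4 without the filter and 2 after cyclic loess.

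The remaining lists had at most 1 call each. Hypoxia-inducible genes (16 of 20 tested) had HK2 as their only call, KLF factors (9 of 11) had KLF6, and interferon-stimulated genes (12 of 19) had IFI44L, at 8.59, 8.34, 7.61 and 7.04 (adjusted p = 0.041). Among chemokines and inflammatory genes (14 of 20 tested) the cytokine LIF fell from 8.66 and 8.68 to 7.53 and 6.95 (adjusted p = 0.024), and their median difference was -0.68 (-1.27 without the 3 h array). No call fell on the 8 tested metallothionein and zinc genes or on the 8 tested ID and TGF-beta feedback genes by limma, with median differences of -0.14 (-0.05 without the 0 h array) and -0.30 (0.10 without the 0 h and -0.49 without the 3 h array). Of 11 tested housekeeping genes 1 fell, the cyclophilin PPIA (10.29, 10.20, 9.60 and 9.41, adjusted p = 0.036), with a median difference of -0.04 that other scalings moved up to 0.03. GAPDH was at 14.31, 14.23, 14.16 and 14.14 and RPLP0 at 15.89, 15.90, 15.90 and 15.81. Without the 9 h array LIF (0.12), IFI44L (0.22) and PPIA (0.18) were not called, nor were IFI44L (0.078) and PPIA (0.086) without the 0 h array or PPIA (0.051) without the 6 h array. Without the 3 h array 8 chemokine and inflammatory genes were called lower.

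The 0 and 3 h arrays already differed from each other. With 1 array on each side there is no test, and a fold of 1.7 was used as the limit. At 3 h 338 probes (3.1%) were at least 1.7-fold higher than at 0 h and 268 (2.46%) at least 1.7-fold lower, 606 in all. Between 6 and 9 h the counts were 117 and 128, and between 3 and 6 h they were 463 and 415. The count at 3 h depended on the treatment of dim probes, with 171 in place of 606 without background correction, 383 with an offset of 50 and 270 at a fold of 2. Of the probes called between the windows, 17 higher and 22 lower ones had 0 and 3 h at least 1.7-fold apart.

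**Figure D4:**
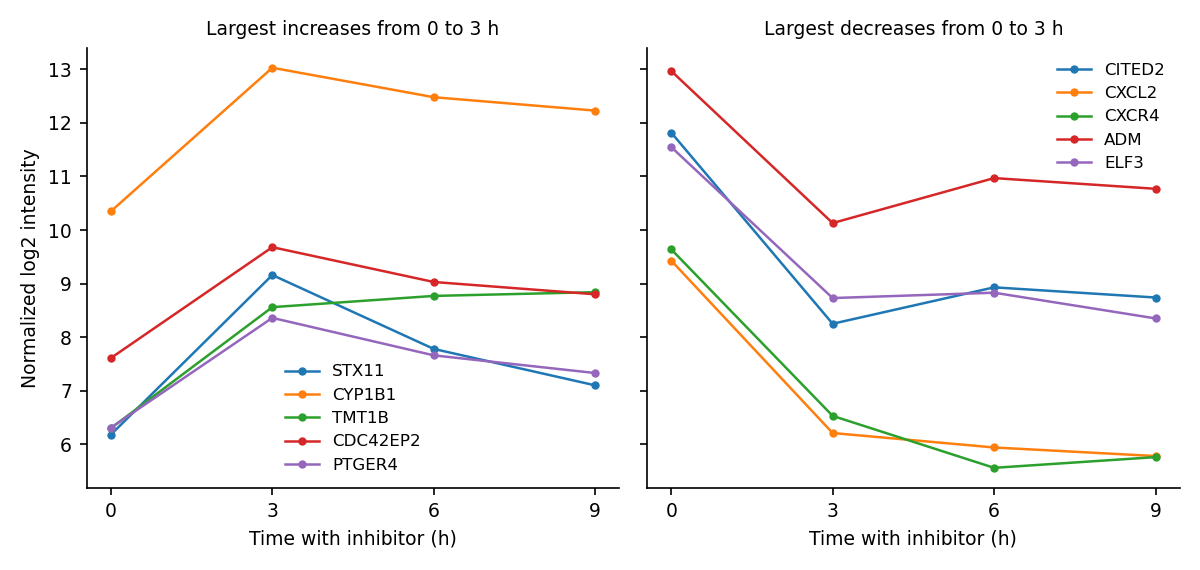
Normalized log2 intensity (y axis) at 0, 3, 6 and 9 h with inhibitor (x axis) is drawn for the 5 genes with the largest increase (left) and the 5 with the largest decrease (right) from 0 to 3 h among probes detected on both arrays. STX11 went from 6.18 to 9.16 and came back to 7.10 at 9 h, whereas CITED2 went from 11.82 to 8.25 and was at 8.74 at 9 h.

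Among the genes higher at 3 h, STX11, a syntaxin of vesicle fusion, stood at 6.18, 9.16, 7.78 and 7.10, a 7.88-fold difference between 0 and 3 h. CYP1B1, an estrogen- and xenobiotic-metabolizing cytochrome, stood at 10.35, 13.03, 12.48 and 12.23, 6.40-fold higher at 3 h. TMT1B, a methyltransferase listed as METTL7B, stood at 6.30, 8.56, 8.77 and 8.84. The difference of TMT1B lasted to 9 h, that of CYP1B1 declined slowly, and that of STX11 was largely gone by 9 h. CDC42EP2, an effector of the GTPase CDC42, had 7.61, 9.68, 9.03 and 8.80, and the prostaglandin receptor PTGER4 had 6.31, 8.36, 7.66 and 7.33. None of these 5 was called between the windows (adjusted p from 0.21 to 0.90), and the windows overlapped for all but TMT1B.

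Among the genes lower at 3 h, CITED2, a transcriptional coregulator and FOXO target, stood at 11.82, 8.25, 8.93 and 8.74, an 11.9-fold difference between 0 and 3 h. ADM, the vasodilator peptide adrenomedullin, stood at 12.97, 10.13, 10.97 and 10.77, and the epithelial factor ELF3 at 11.55, 8.73, 8.83 and 8.35. The chemokine CXCL2 stood at 9.43, 6.21, 5.94 and 5.78 and the chemokine receptor CXCR4 at 9.64, 6.53, 5.56 and 5.76. Each of these genes reached most of its difference by 3 h. CXCL2 and CXCR4 were undetected at 6 and 9 h, where they were at least 3.23-fold and 3.89-fold lower than at 0 and 3 h. A combined CXCR4 row, not tested, stood at 10.87, 8.02, 7.11 and 7.21. None of the 5 passed the test between the windows, in which their early arrays lay far apart. The adjusted p (limma) ran from 0.25 to 0.61 for CITED2, ADM and ELF3. CXCL2 and CXCR4 were tested through the early window alone, so a difference was built in by the filter and their p-values are not given.

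By list, chemokines and inflammatory genes had the most members past 1.7-fold at 3 h, 7 lower and 2 higher of 14. Over all tested probes, 2.46% were lower and 3.1% higher by that fold. CXCL8 was at 10.34, 8.62, 7.20 and 7.74, CXCL1 at 11.32, 9.48, 9.13 and 9.23, and TNFAIP3, an inhibitor of NF-kappaB, at 9.76, 8.44, 7.78 and 7.67. The chemokine CCL20 went the other way, at 10.28, 11.45, 10.97 and 10.54. FOXO targets had 6 lower of 16, among them CITED2, BCL6 (11.03, 8.98, 8.64 and 8.93) and SESN1 (10.04, 8.69, 8.73 and 8.61). Clock genes had 4 lower of 11, and glucocorticoid-induced genes 4 lower and 1 higher of 15, with DUSP1 at 13.69, 12.06, 11.86 and 12.08. The ATF4 target DDIT3, known as CHOP, was at 11.37, 8.59, 7.66 and 8.07, and the stress-induced hormone STC2 at 11.26, 9.11, 9.29 and 9.25. No sterol gene and no fatty acid gene passed 1.7-fold at 3 h, and among ribosome biogenesis genes PPAN alone did. In lists of this size such counts lie near the share of all tested probes, 5.56% in either direction.

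Some levels of 6 and 9 h did not last. The brighter INSIG1 probe, at 8.82 and 8.97 in that window, averaged 11.10 over 12 to 21 h and 10.95 over 36 to 45 h, so it came back part of the way. The dimmer INSIG1 probe, at 9.06 and 8.51 in that window, did not, and averaged 7.87 and then 7.60. TSC22D3 averaged 11.59 and then 13.61, above its 0 h level, and PER2 9.04 and then 10.07. HMOX1 averaged 6.24 and then 6.83, and stayed low. Of the genes that rose, CDCA7 averaged 12.00 over 12 to 21 h and 10.31 over 36 to 45 h, and HK2 8.01 and then 6.87, close to its 0 h level. These later arrays took no part in the tests of the early windows.

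**Figure D5:**
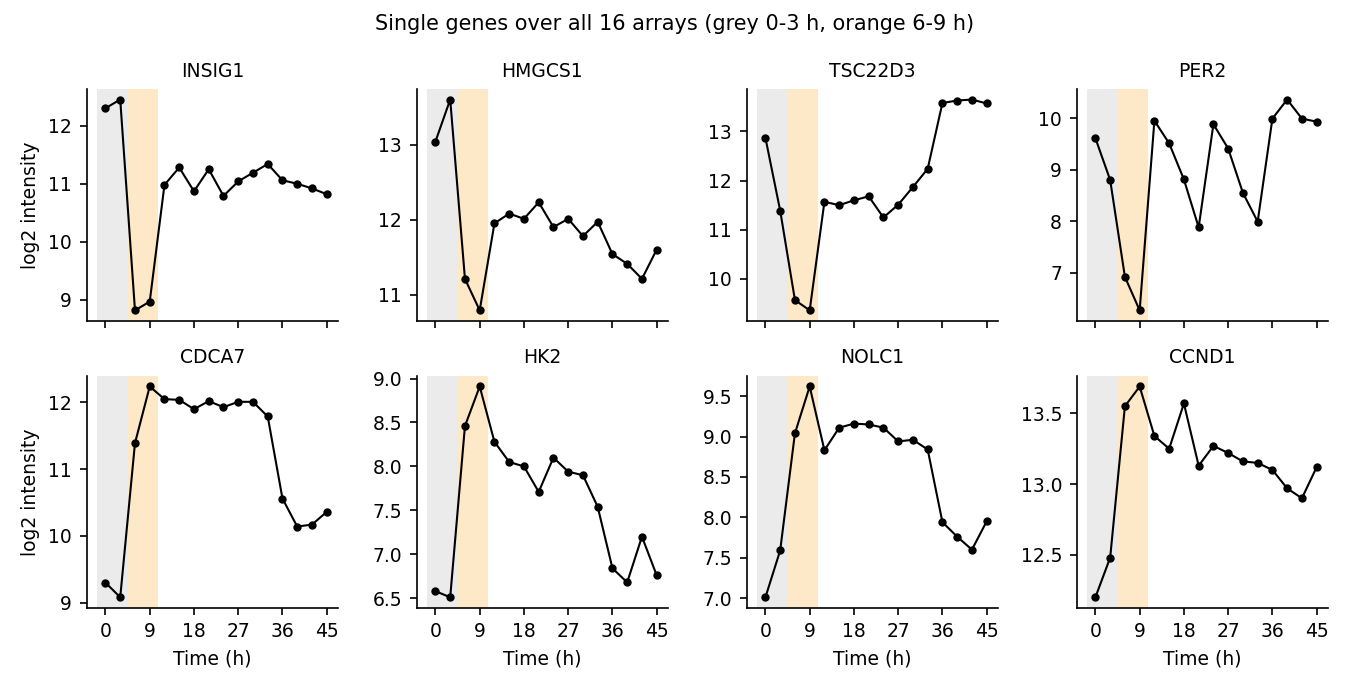
Panels show the normalized log2 intensity (y axis) of 8 genes on the 16 arrays from 0 to 45 h with inhibitor (x axis), with 1 array at each point, a grey band at 0 and 3 h and an orange band at 6 and 9 h. INSIG1 (brighter probe), HMGCS1, TSC22D3 and PER2 have their lowest values in the orange band, and CDCA7, HK2, NOLC1 and CCND1 their highest, at 9 h for each (12.24, 8.91, 9.62 and 13.69).

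The arrays limit these results by their number. Each time point is 1 plate on 1 array, the windows hold a change of their own, and genes still moving between 0 and 3 h or 6 and 9 h are called less readily than genes with a flat window. A call states that the windows differ by more than a spread drawn from both the probe's own windows and all probes. It does not state that other time points of the same windows would do so.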

How the data were processed

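The intensity values deposited by the authors, without normalization, were used, together with the detection p-value deposited for each row and array. Files were read in R 4.3.3 and analysed with limma 3.58.1. Background was corrected by normexp, with the level and spread of the negative control beads inferred from the detection p-values of single-probe rows, and an offset of 16 was added. Quantile normalization over all 16 arrays and log2 followed. Rows that combine several probes seem to hold averages, also of the detection p-value, which was not tested, and they were kept as rows. A probe was tested when 2 or more of the 4 arrays had a detection p below 0.05, by limma with a prior variance that follows intensity, and p-values were adjusted over all tested probes by the method of Benjamini and Hochberg.

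Symbols were matched to the GRCh38.p14 gene table: 8047 probes by current symbol and 2077 by synonym, while 770 stayed unmatched. Where a gene had several probes, the one with the highest mean stood for it in the lists. Named by rule were the 10 largest called increases and decreases, the 3 largest called differences of each list, the genes named by the study and the 5 largest differences in each direction between 0 and 3 h. Further members were named after their values had been seen, and the lists and members were chosen with earlier results of these data known. As alternatives, background was left in, the offset was set to 50, arrays were scaled by their medians, by cyclic loess or by quantiles of the 4 arrays, and filters were tightened or dropped. Others were a flat prior variance, all 16 arrays in 8 windows, a fold of 2 and leaving out each array in turn. The code was tried on simulated data before use.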

Additional observations from a re-analysis of the deposited data

How the results depend on the processing

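The count of called probes, 899, was 817 to 1111 under other background, offset, scaling and filter choices. It was 2985 when all 16 arrays were fitted as 8 windows and 97 without an intensity trend, and leaving out single arrays gave 51 to 1551 (577 without 0 h, 1551 without 3 h, 716 without 6 h and 51 without 9 h). In these leave-outs each probe's own spread comes from the other window alone, and the lone array is assumed to vary like it. Why the counts differ otherwise was not tested. Of the calls, 55.95% were higher, against 65.53% after median scaling and 39.22% without the 9 h array. The 1084 probes at least 1.7-fold apart with windows that did not overlap became 418 without background correction and 541 at a fold of 2, and 978 to 1574 with an array left out. The 606 probes at least 1.7-fold apart between 0 and 3 h became 171 without background correction, 383 with an offset of 50 and 270 at a fold of 2. Both smaller counts follow from construction, since unremoved background or a larger offset shrinks every log2 difference. Of 147 genes followed, 105 were called, and 84 of these calls were lost without an intensity trend and 82 without the 9 h array; none reversed, and 4 genes without a call changed sign. Signal over background limits dim probes, whose decreases shrink near the floor. No paired analysis was possible because every time point has a single array, so the windows share a single replicate number and no pairs can be formed.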

Other observations

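These genes were chosen after their values had been seen. LYAR, a nucleolar protein, was at 9.97, 10.00, 11.70 and 11.90 at 0, 3, 6 and 9 h (log2 difference 1.81, adjusted p = 0.0037, limma), and GEMIN4 and GEMIN5, parts of the SMN complex that assembles small nuclear ribonucleoproteins, were at 9.67, 10.03, 11.45 and 11.78 and at 6.66, 6.95, 8.47 and 8.35 (adjusted p = 0.0077 and 0.015). The lipin gene LPIN1 was at 13.24, 13.02, 11.56 and 11.19, and PPP1R15A, a phosphatase subunit of the stress response, at 12.64, 12.30, 10.82 and 10.80 (adjusted p = 0.0048 for each).

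CYP1B1 and TIPARP, targets of the aryl hydrocarbon receptor, were higher at 3 h than at 0 h, at 10.35, 13.03, 12.48 and 12.23 and at 10.58, 12.31, 11.04 and 10.89. Other targets were not, with CYP1A1 (5.67, 5.55, 5.67 and 5.57) and AHRR (5.19, 5.45, 5.27 and 5.27) undetected and ALDH3A1 at 10.61, 10.61, 10.59 and 10.42.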
